A study of Mus musculus with 2 samples.

Results

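The transcripts described here are 8 mouse RNAs that carry small nucleolar RNAs (snoRNAs) in their introns, *Gas5*, *Snhg1*, *Snhg3*, *Snhg5*, *Snhg6*, *Snhg8*, *Snhg11* and *Snhg12*, of 39695 gene entries in the deposited tables. They were chosen by gene symbol, and the symbols were paired with Ensembl identifiers through the GENCODE M21 annotation of GRCm38. Of the 8, 6 had an entry and 5 of these were above 0. *Snhg3* was listed at 0 in both libraries, and no entry carried the identifiers of *Snhg1* (ENSMUSG00000108414) or *Snhg8* (ENSMUSG00000104960), which were therefore not analysed here.

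The study asked how germ cells depend on BCAS2, a subunit of the Prp19 complex of the spliceosome. RNA was taken from whole testes at an age of 9 days (P9), and 1 library was made from control mice and 1 from Bcas2 F/-;Vasa-Cre mice. Mice of both groups had 1 floxed and 1 deleted allele of *Bcas2*. The controls lacked Cre, whereas the mutants had the *Vasa-Cre* transgene, which is active in germ cells, so that their somatic cells keep the floxed allele. The labels give the strain as C57BL/6 whereas the study's methods describe a mixed background, and how many mice went into a library was not given in the sources used here.

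A snoRNA host gene is transcribed like a messenger RNA, but its introns hold the useful product. After splicing, the intron lariat is opened and trimmed by exonucleases until only the snoRNA and its bound proteins are left. Box C/D snoRNAs guide the ribose methylation of ribosomal and other RNAs, and box H/ACA snoRNAs guide the conversion of uridine to pseudouridine. The joined exons form a by-product that often lacks a long reading frame, and for several hosts, *Gas5* and *Snhg1* among them, it is translated briefly and removed by nonsense-mediated decay. Many hosts, ribosomal protein genes included, begin transcription in a run of pyrimidines, the terminal oligopyrimidine tract, which couples their translation to growth signals. *Gas5* takes its name from its accumulation in growth-arrested cells.

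In the annotation the 8 genes held 31 snoRNA genes on their own strand, 16 with a Snord or Snora name and 15 with another name, mostly a Gm number. *Gas5* held 10, *Snhg1* 8, *Snhg12* 5, *Snhg3*, *Snhg5* and *Snhg11* 2 each, and *Snhg6* and *Snhg8* 1 each. The label of spliced transcripts held for the annotated structures, since all 25 *Gas5* transcripts had at least 2 exons, with 12 in the longest chain, and *Snhg8* alone had a single-exon transcript among its 3. Gene-level values add up all transcripts of a gene, so spliced and unspliced RNA could not be separated.

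**Figure D1:**
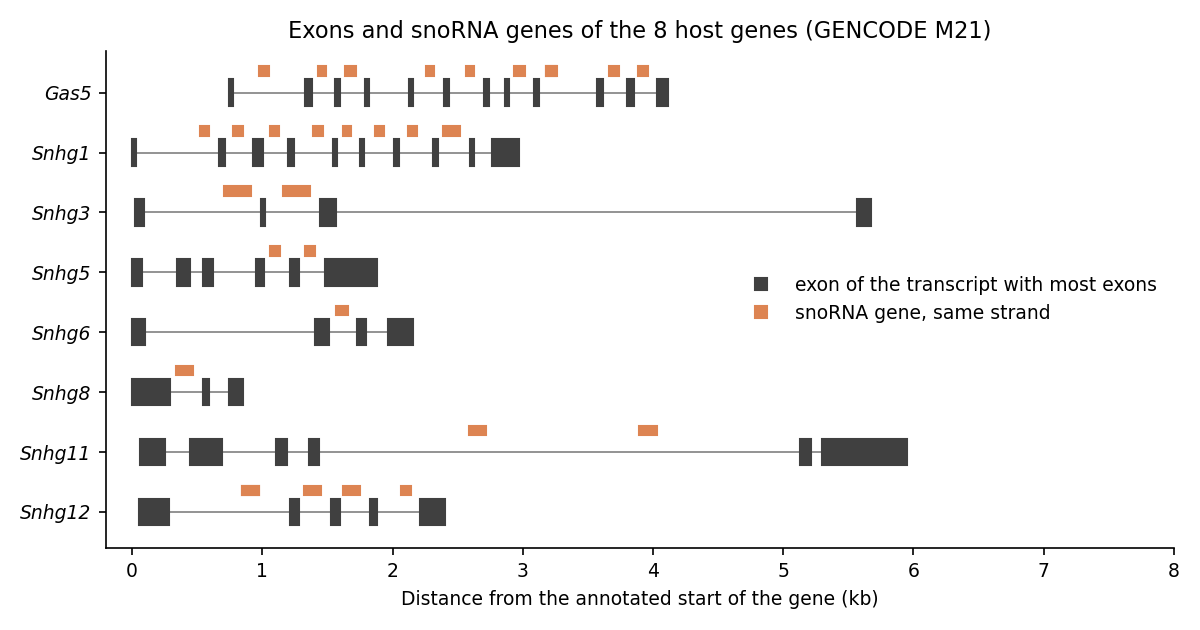
Exons of the annotated transcript with most exons (dark boxes, lines as introns) and snoRNA genes on the same strand (orange) for the 8 host genes, by distance from the annotated start of the gene in kb, drawn in the direction of transcription. Each of the 31 snoRNA genes lies between exons of the transcript drawn, and 2 pairs of entries overlap each other.

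The small RNA sequences below show what the introns carry, and were chosen because they were the snoRNA genes above 0 in either library, together with *Snord47* as an example from *Gas5*. They come from the GENCODE M21 transcripts on GRCm38, written as DNA. Capitals mark box C (ATGATGA or GTGATGA in the first 25 bases) and box D (CTGA in the last 20 bases) of box C/D snoRNAs, or the ACA that lies 3 bases from the 3′ end of box H/ACA snoRNAs.
Snord47, in Gas5, chr1:161038082-161038158, plus strand: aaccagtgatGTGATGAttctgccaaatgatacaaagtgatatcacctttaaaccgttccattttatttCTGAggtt
Snord87, in Snhg6, chr1:9942463-9942549, minus strand: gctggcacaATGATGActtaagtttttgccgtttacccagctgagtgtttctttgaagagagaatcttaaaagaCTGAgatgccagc
Snora24, in Snhg8, chr3:123507937-123508066, minus strand: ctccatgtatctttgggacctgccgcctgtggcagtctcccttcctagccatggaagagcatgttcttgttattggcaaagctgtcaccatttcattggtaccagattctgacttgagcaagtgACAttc
Snora16a, in Snhg12, chr4:132309465-132309600, plus strand: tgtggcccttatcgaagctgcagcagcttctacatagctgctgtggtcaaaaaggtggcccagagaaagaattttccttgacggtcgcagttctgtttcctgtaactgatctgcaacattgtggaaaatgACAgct
Gm25129, in Snhg11, chr2:158379534-158379666, plus strand: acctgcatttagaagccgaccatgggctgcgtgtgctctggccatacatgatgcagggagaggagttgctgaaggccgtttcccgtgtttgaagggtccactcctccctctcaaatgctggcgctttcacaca
The 4 named RNAs held the boxes of their class and Gm25129 held neither kind by this search. Over the whole annotation, 66 of 98 Snord genes (67.3%) held both boxes C and D in these forms, and 35 of 42 Snora genes (83.3%) held the ACA.

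Start sites were read from the RefSeq promoter table on GRCm38.p6, which held 8 start sites for 7 of the host genes. The 46-base windows below run from 20 bases before to 25 bases after the annotated start, and capitals mark the longest run of C and T that begins with C within 15 bases on either side of it.
Gas5, first start, chr1:161034581-161034626, plus strand: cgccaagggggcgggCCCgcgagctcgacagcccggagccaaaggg
Gas5, second start, chr1:161035146-161035191, plus strand: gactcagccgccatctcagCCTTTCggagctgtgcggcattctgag
Snhg5, chr9:88522872-88522917, minus strand: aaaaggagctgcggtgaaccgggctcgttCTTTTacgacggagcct
Snhg8, chr3:123508311-123508356, minus strand: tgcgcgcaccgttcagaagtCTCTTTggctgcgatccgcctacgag
Snhg11, chr2:158375693-158375738, plus strand: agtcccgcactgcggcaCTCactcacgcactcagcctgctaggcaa
Snhg12, chr4:132308658-132308703, plus strand: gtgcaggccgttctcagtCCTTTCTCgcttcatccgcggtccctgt
The run was longest in *Snhg12*, at 8 bases, and was 6 bases at the second *Gas5* start and in *Snhg8*. It was 5 bases in *Snhg3* and *Snhg5*, 4 in *Snhg1* and 3 in *Snhg11* and at the first *Gas5* start. A run of at least 6 bases was present at 3 of the 8 start sites (37.5%), against 7594 of all 32851 promoters in the table (23.1%). Among protein-coding hosts of named snoRNAs it was present at 21 of 58 start sites (36.2%), made up of 10 of 18 at ribosomal protein genes (55.6%) and 11 of 40 at the others (27.5%). Such a run is a description of the letters and does not show where transcription began in these testes.

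Levels are given as deposited RPKM, the reads of a gene scaled to its length and to the size of the library. A pseudocount of 1 was added, and the log2 ratio of the mutant to the control value was taken for the 14831 genes whose mean RPKM reached 1. Whole reads were recovered from the RPKM steps, with library sizes of 19918750 (control) and 19331687 (mutant). These sizes are the totals implied by the RPKM scaling and are smaller than the mapped reads that the study reports. Whether a counted unit, called a read here, was a read or a read pair was not tested. With 1 library per genotype there was no replicate check and no test between genotypes, and the 95% intervals given (Clopper-Pearson for ratios, exact Poisson for RPKM) cover counting error only. The interval of a ratio is that of the log2 RPKM ratio without the pseudocount. *Bcas2* itself, the targeted gene (chr3:103171655-103179166, plus strand) was at 39.5 RPKM in the control and 25.7 in the mutant library, a log2 ratio of −0.60 with an interval from −0.75 to −0.50.

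*Gas5* and *Snhg11* stood higher in mutant testes by more than their counting error, whereas the ratios of *Snhg12*, *Snhg5* and *Snhg6* had intervals that included 0. None of the 5 passed 1.5-fold (0.585 on the log2 scale). All 5 had a log2 ratio above 0, where 53.7% of the genes tested did, but *Snhg6* at 0.01 lay below the median of all genes tested. Among non-coding entries whose mean RPKM reached 10, 64 of 84 (76.2%) were above 0. The count past 1.5-fold higher was 0 of 5 against 1.57% of the genes tested, with 0 of 5 lower against 1.69%. Such calls were rarer at higher levels, with 17 higher and 66 lower among the 8670 genes whose mean RPKM reached 10. The median log2 ratio of the 5 was 0.16, beside 0.02 over all genes tested (SD 0.26) and 0.01 over the 8670 genes whose mean RPKM reached 10 (SD 0.18), the level class of all 5.

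*Gas5* (ENSMUSG00000053332) lies at chr1:161034422-161038539 on the plus strand and was the most abundant of the hosts. It was at 107 RPKM in the control library (interval 101 to 112, 1573 reads) and at 144 in the mutant library (138 to 151, 2067 reads). The mutant value was 1.35 times the control value, and the counting intervals did not overlap. The log2 ratio was 0.43, with an interval from 0.34 to 0.53. Of all genes tested, 441 (2.97%) had a ratio at least as high, and among the genes whose mean reached 10 there were 47 (0.542%). The SD of that class was 0.18, whereas its 84 non-coding entries, *Gas5* among them, had a median of 0.15 and an SD of 0.26. A share at least as high was not computed for the non-coding entries. Apart from the 10 snoRNA genes within it, all of which overlapped annotated exon bases of *Gas5*, it shared no exon bases with another annotated gene. Its mean level was above that of 94.4% of the genes tested.

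*Snhg11* (ENSMUSG00000044349) lies at chr2:158375638-158386145 on the plus strand. GENCODE M21 gives it the biotype protein-coding, while the RefSeq gene table lists a long non-coding RNA. Its level was 14.2 RPKM in the control (13.2 to 15.4, 671 reads) and 20.1 in the mutant library (18.9 to 21.5, 920 reads). The fold was 1.41, the largest of the 5, and the log2 ratio was 0.47 with an interval from 0.35 to 0.64. As for *Gas5*, the levels of the libraries were apart by more than counting error, and the upper bound of the interval ran past the 1.5-fold limit. Ratios at least as high were found in 363 genes tested (2.45%), and in 28 of those whose mean reached 10 (0.323%).

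*Snhg12* (ENSMUSG00000086290, chr4:132308623-132311024, plus strand) hosts several H/ACA snoRNAs and lies on chromosome 4 near *Snhg3*. It was at 18.3 RPKM in the control and 20.6 in the mutant library, or 235 and 256 reads. The log2 ratio of 0.16 had an interval from −0.09 to 0.43, which includes both 0 and a difference of nearly the size seen in *Gas5*, so a difference was not detectable at this depth. A ratio at least as high was present in 20.3% of the genes tested. The gene lengths implied by the values of *Snhg12* and *Snhg5* did not equal the mean transcript length in GENCODE M21, so their read numbers may be off by a whole factor and their intervals with them.

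*Snhg5* (ENSMUSG00000097195, chr9:88521050-88522929, minus strand), the host of *Snord50a* and *Snord50b*, was at 56.5 RPKM in the control and 60.6 in the mutant library, or 790 and 822 reads. Its log2 ratio was 0.10 with an interval from −0.04 to 0.24. *Snhg6* (ENSMUSG00000098234, chr1:9941959-9944118, minus strand), the host of *Snord87*, was at 40.5 and 40.7 RPKM, or 469 and 457 reads. Its log2 ratio of 0.01 had an interval from −0.18 to 0.19, and 52.3% of the genes tested had a ratio at least as high. The upper bounds of both intervals lay below the lower bound of *Gas5*.

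*Snhg3* (ENSMUSG00000085241, chr4:132348014-132353686, minus strand), the host of *Snora73a* and *Snora73b*, was listed at 0 in both libraries. Of its 986 exon bases, 821 (83.3%) were also exon bases of *Rcc1* on the same strand or of *Gm17300* on the other. *Rcc1*, the nucleotide exchange factor of the GTPase Ran, was at 49.2 RPKM in the control and 45.4 in the mutant library. How reads on shared bases were assigned was not tested, so the value of 0 gives no level for *Snhg3*.

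**Figure D2:**
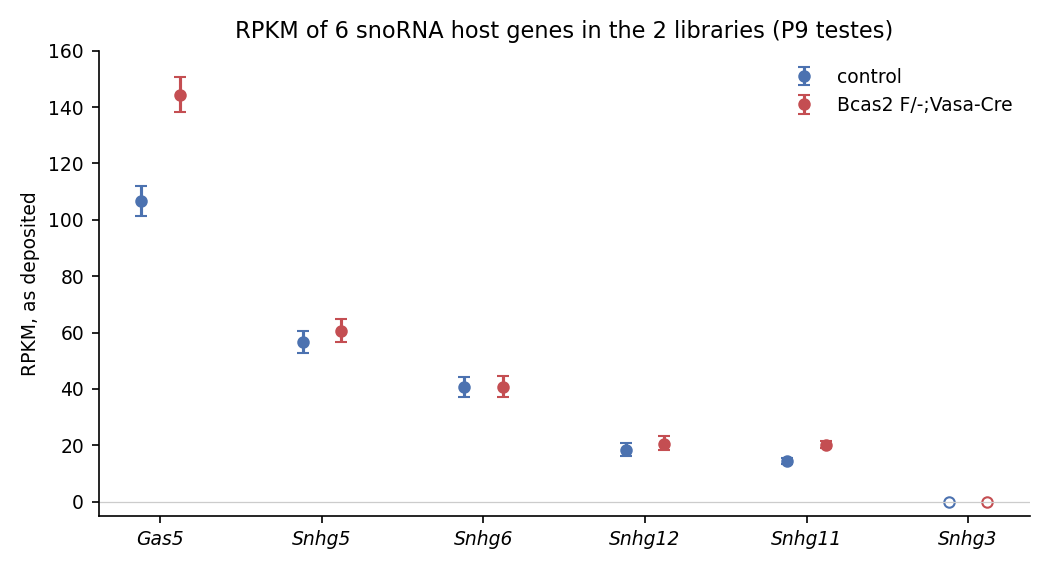
RPKM as deposited (vertical axis) for the 6 host genes with an entry, in control (blue) and Bcas2 F/-;Vasa-Cre (red) testes, with exact 95% Poisson intervals of the reads as bars and open circles for *Snhg3*, listed at 0. The intervals of the libraries are apart for *Gas5* (107 and 144) and *Snhg11* (14.2 and 20.1) and overlap for the other genes above 0.

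On the RPKM scale, which is per length, the order of levels in the control was *Gas5*, *Snhg5*, *Snhg6*, *Snhg12* and *Snhg11*, and neighbours in this order had counting intervals that did not overlap. In the mutant library the same order was kept, but *Snhg12* at 20.6 and *Snhg11* at 20.1 had overlapping intervals. The spread between animals was not measured, so neither order carries an error beyond counting.

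**Figure D3:**
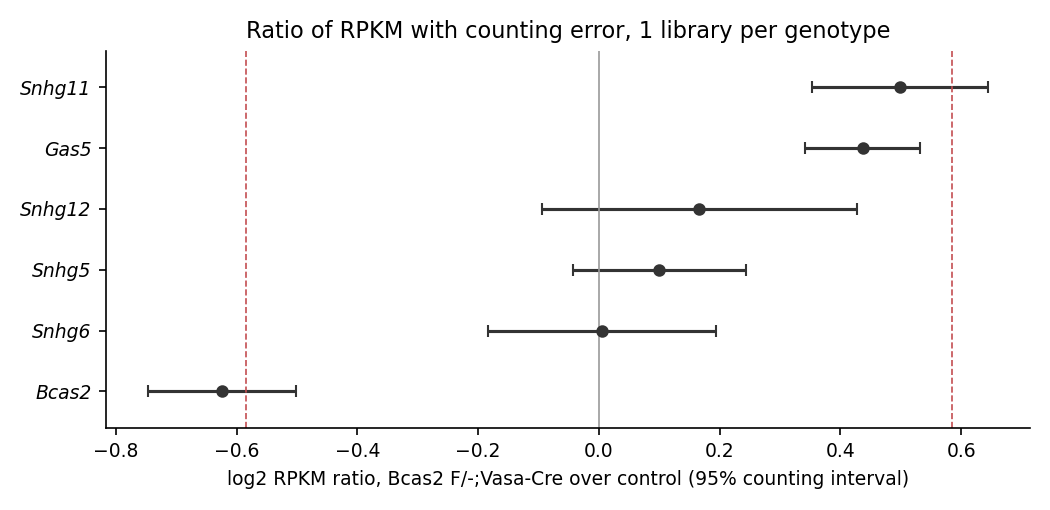
Log2 RPKM ratio without pseudocount, Bcas2 F/-;Vasa-Cre over control, for the 5 host genes above 0 and for *Bcas2*, with 95% Clopper-Pearson intervals as bars, a solid line at 0 and dashed lines at 1.5-fold. *Snhg11* (0.50) and *Gas5* (0.44) have intervals above 0, *Bcas2* has one below 0, and the other 3 host genes have intervals that include 0.

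The expression of genes beside the hosts was compared next, since several share a start region or exons. *Zbtb37*, a zinc finger gene on the other strand whose start lies 427 bases from that of *Gas5*, was at 5.80 RPKM in the control and 4.84 in the mutant library. Its log2 ratio was −0.22 with an interval from −0.43 to −0.09, and thus on the other side of 0 from *Gas5*. *Slc3a2*, the heavy chain of amino acid transporters, starts 106 bases from *Snhg1* on the other strand, and was at 74.9 and 73.7 RPKM. The log2 ratio of *Rcc1*, which starts 81 bases from *Snhg3*, was −0.11 with an interval from −0.23 to 0.01. *Gm17300* had 5 and 4 reads. *Mcmdc2*, which acts in meiotic recombination and shares 127 of the 1146 exon bases of *Snhg6* (11.1%) on the other strand, was at 1.19 and 0.900 RPKM, a log2 ratio of −0.20 with an interval from −1.03 to 0.22.

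The snoRNA genes within the hosts were themselves mostly at 0. Of the 31, 29 had an entry, of which 25 were listed at 0 in both libraries, including all 9 entries within *Gas5* and all 8 within *Snhg1*. At least 1 base of 28 of the 31 was also annotated as an exon of some transcript of the host. Of the 25 at 0, 24 had such an overlap, and of the 4 above 0, 2 had one. Those 2 were *Snora24* and *Snora16a*, with all of their 130 and 136 bases annotated as host exon. *Snora24*, a guide in *Snhg8*, was at 15.8 RPKM in the control and 19.1 in the mutant library, from 41 and 48 reads, with a log2 ratio of 0.26 and an interval from −0.36 to 0.91. *Snora16a* in *Snhg12* had 10 and 15 reads, with an interval of the log2 ratio from −0.62 to 1.94. *Snord87* in *Snhg6* had 4 and 3 reads, and Gm25129 in *Snhg11* had 0 and 1, too few for a ratio. The study describes the sequenced material as mRNA, and its methods give no step for mature snoRNAs. These reads were therefore not taken as levels of mature snoRNAs.

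Other genes that host a snoRNA with a Snord, Snora or Scarna name were then set beside the hosts. Of 17 further non-coding hosts, 12 had an entry and 11 passed the filter on mean RPKM. Of all genes tested, 53.7% were above 0, with 1.57% past 1.5-fold higher and 1.69% past it lower. The median log2 ratio of the 11 hosts was 0.02, with 7 above 0 (63.6%) and 4 below. Of these hosts, 1 was past 1.5-fold higher and none past 1.5-fold lower. The highest were *Rab26os*, at 17.2 RPKM in the control and 28.1 in the mutant library (0.68), *1110038B12Rik*, at 37.2 and 51.0 (0.45), and *Snhg15*, at 11.8 and 14.3 (0.26). The lowest were *AA465934*, at 33.1 and 22.8 RPKM (−0.52), *Cct6a* (−0.10) and *2410006H16Rik* (−0.09). *Cct6a* encodes a subunit of the CCT chaperonin and stood in this list because GENCODE M21 types the gene as a processed transcript. *Zfas1*, a host of several box C/D snoRNAs, was level at 72.1 and 72.2 RPKM. The non-coding hosts thus spread to both sides of 0, with an SD of 0.31 over the 11 against 0.21 over the 5 described above. Over all 662 non-coding entries tested, hosts or not, 470 were above 0 and the median was 0.13, and among the 84 whose mean RPKM reached 10 the median was 0.15, beside 0.16 for the 5 hosts.

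Protein-coding hosts numbered 72, of which 68 passed the filter. Of these, 26 were above 0 (38.2%, against 53.7% of all genes tested) and 42 below. The median log2 ratio was −0.08, and none was past 1.5-fold with the pseudocount of 1. With hosts of snoRNAs without such a name included, a list chosen after seeing the data, 111 of 231 were above 0 and 120 below, with a median of −0.01. The lowest was *Eif5*, a translation initiation factor, at 145 RPKM in the control and 112 in the mutant library (−0.37). The highest were *Gm45713* (0.39), *Rps3a1*, at 426 and 551 RPKM (0.37), and *Gm38393* (0.30). *Gm45713* was low, at 1.20 and 1.88 RPKM from 27 and 41 reads, and its ratio without the pseudocount was 1.56-fold, past the limit, with a log2 interval from −0.09 to 1.40. Splitting this list by function was done after its values were seen. The 25 genes of cytosolic ribosomal proteins, *Rack1* included, had 23 below 0 and 2 above, with a median of −0.17, and the other 43 had 24 above and 19 below, with a median of 0.02. With 2 libraries a pattern across samples is a single ratio, and the hosts nearest to the median of the 5 were *Atg16l1*, an autophagy gene (0.17), *2700038G22Rik* (0.17) and *Srcap*, a chromatin remodeller (0.19).

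**Figure D4:**
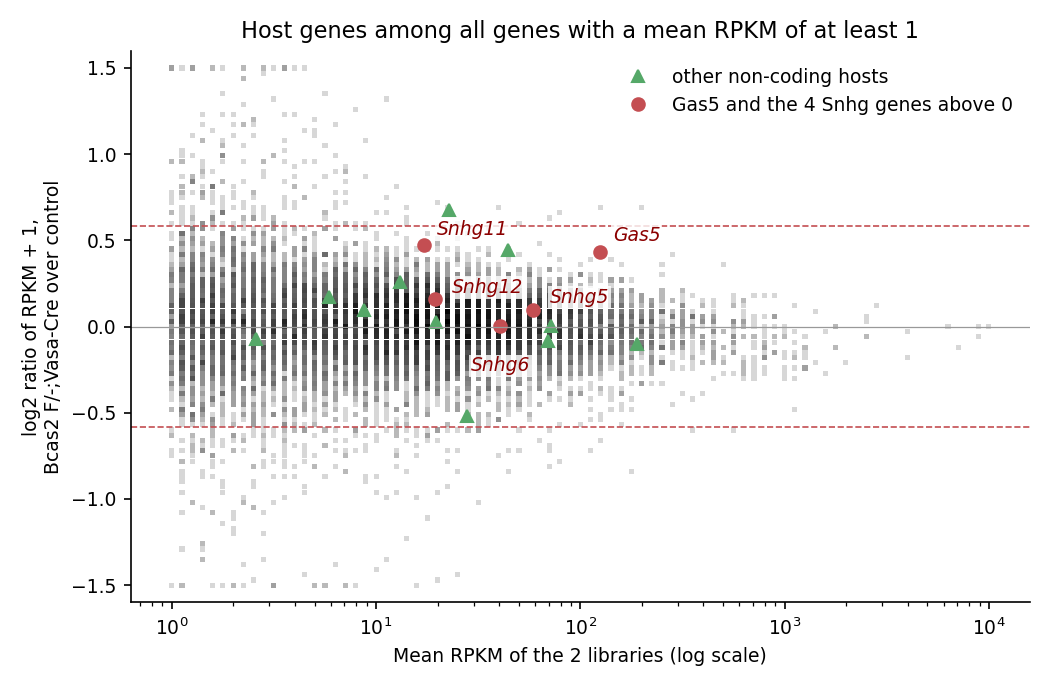
Log2 ratio of RPKM + 1 (vertical axis, limited to 1.5 on either side) against mean RPKM of the 2 libraries (log scale) for the 14831 genes tested (grey, darker where more genes fall), with the 5 host genes in red, other non-coding hosts as green triangles and dashed lines at 1.5-fold. *Gas5* lies at 0.43 near the upper edge of genes of its level, and *Snhg6* lies at 0.01.

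The mature snoRNA works as a particle with bound proteins. Of 18 snoRNP proteins and assembly factors, 4 were above 0 (22.2%, against 53.7% of all genes tested) and 14 below. None was past 1.5-fold, and the median log2 ratio was −0.10. The lowest were *Pih1d1*, a subunit of the chaperone complex that assembles snoRNPs, at 66.0 RPKM in the control and 51.8 in the mutant library (−0.34), *Shq1*, a chaperone of the pseudouridine synthase dyskerin (−0.25), and *Znhit3*, which assists box C/D assembly (−0.25). The highest were *Gar1*, a core H/ACA protein, at 70.9 and 80.3 RPKM (0.18), *Nufip1*, an assembly factor (0.07), and *Nop58*, a core box C/D protein (0.07).

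Of 6 genes for intron release and trimming, 2 were above 0 (33.3%, against 53.7% of all genes tested) and 4 below. Their median log2 ratio was −0.05. *Exosc10*, a nuclease of the nuclear exosome, was at 57.5 RPKM in the control and 48.4 in the mutant library (−0.24). *Aqr*, an intron-binding helicase, was at −0.11 and *Parn*, which trims 3′ tails, at −0.09. The lariat debranching enzyme *Dbr1* was at 33.2 and 34.0 RPKM (0.03), and the exonucleases *Xrn1* and *Xrn2* had log2 ratios of 0.07 and −0.01.

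Nonsense-mediated decay removes the spliced exons of several hosts. Of 10 of its factors, 9 were above 0 (90%, against 53.7% of all genes tested) and 1 below. The median was 0.08, beside 0.02 over all genes tested, and none was past 1.5-fold. The highest was *Upf3b*, which links the exon junction complex to decay, at 33.5 RPKM in the control and 39.6 in the mutant library (0.24), followed by the helicase *Upf1* at 18.0 and 20.1 (0.15) and the endonuclease *Smg6* at 49.9 and 55.2 (0.14). *Smg8* (−0.01), *Upf2* (0.00) and *Smg9* (0.04) were the lowest.

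**Figure D5:**
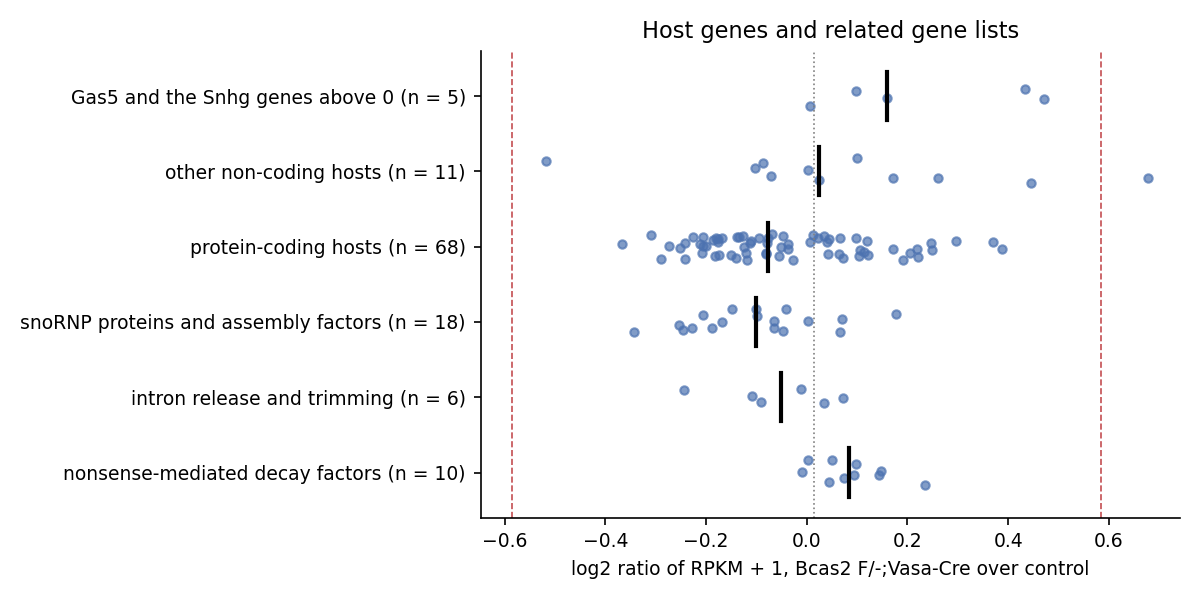
Log2 ratio of RPKM + 1, Bcas2 F/-;Vasa-Cre over control (horizontal axis), for each gene tested (points, spread vertically for display only) in the host genes and 5 related lists, with medians as black bars, the median of all genes tested (0.02) as a dotted line and 1.5-fold as dashed lines. Medians run from −0.10 for snoRNP proteins to 0.16 for the 5 host genes, and 1 point, *Rab26os*, lies past 1.5-fold.

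Markers of testis cell types also differed between the libraries. All 8 germ cell markers were lower in the mutant library, and their summed RPKM was 448 in the control and 340 in the mutant (log2 ratio −0.40). The study's replicated real-time RT-PCR at P9 differed in part. It found *Ddx4* (*Mvh*), *Dazl*, *Kit* and *Stra8* similar between genotypes, and *Dmc1* and *Sycp3* (*Scp3*) lower in the mutant. The study's counts of MVH-positive cells around the basement membrane soon after this age were not significantly different. Sertoli cell markers summed to 564 and 620 RPKM, with 4 of 5 higher, and Leydig cell markers to 381 and 425, with 3 of 5 higher. Markers of peritubular myoid cells summed to 490 and 457, with 2 of 3 lower, of endothelial cells to 31.2 and 28.9, with 3 of 3 lower, and of macrophages to 17.4 and 15.1, with 3 of 3 lower. Red cell markers summed to 824 and 795 RPKM, but 4 of 5 were lower and their median log2 ratio was −0.38. The 3 neutrophil markers were all lower and summed to 21.9 and 1.32 RPKM. No marker of any list was at 0, and all were measured. In whole testes, fewer cells of a type and less RNA per cell cannot be told apart, and the part of these shifts in the ratios of *Gas5* and *Snhg11* was not tested.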

How the data were processed

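The series holds an RNA-seq library for each genotype, control and Bcas2 F/-;Vasa-Cre, from testes at P9. According to the submitters' processing notes and the study's methods, the authors aligned paired-end reads to mm10 with TopHat2 2.0.9 and counted them on genes with HTSeq. They deposited the counts scaled to RPKM, for 39695 gene entries. The annotation release behind the gene lengths was not given in the sources used here. By Ensembl identifier, 37692 entries (95.0%) were matched to GENCODE M21 on GRCm38, the same build.

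Log2 ratios of RPKM + 1 were computed for genes whose mean RPKM over both libraries reached 1. A pseudocount of 1 understates the change of low genes, and RPKM does not adjust for a change in RNA composition. Whole reads were recovered from the RPKM steps, within 0.002 of a read. The library sizes came from 532 of 1286 genes with a single transcript, and at the rounded mean transcript length 10527 of 21210 matched genes above 0 in both libraries (49.6%) gave whole reads. Other lengths were inferred from the values, so those reads may be off by a whole factor. No count test was run, since there was 1 library per genotype. The procedure was tested on simulated libraries in which each gene had its rounded mean transcript length. The inference of other lengths was therefore not tested. Scripts ran under Python 3.11.15 with pandas 2.3.3, scipy 1.17.1 and numpy 2.4.6, and plots were drawn with matplotlib 3.10.9.

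The members and lists were chosen with earlier results of these data known. Named genes were *Bcas2*, the 8 hosts, snoRNAs within them above 0, and overlapping genes or genes that start within 2 kb. The 3 highest and 3 lowest of each list and the 3 hosts nearest in ratio were named as well. Outside this rule, *Zfas1*, *Rack1*, *Snord47*, some germ cell markers and the non-coding hosts under other observations were named. Some genes that this rule names are not reported here. Alternatives were other pseudocounts, scalings and filters. Hosts of snoRNAs without a Snord, Snora or Scarna name were an alternative chosen after seeing the data. The symbol Nhp2l1 matched no annotated gene. Exon and intron usage was not analysed here, since each gene has a single value per library.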

Additional observations from a re-analysis of the deposited data

How the results depend on the processing

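The ratios of *Gas5*, *Snhg11*, *Snhg12* and *Snhg5*, the median of the 5 hosts and their counts past 1.5-fold kept their direction and their side of the 1.5-fold limit under each alternative, whereas *Snhg6* changed sign under 1. The alternatives were pseudocounts of 0.1 and 0.01, centring on the median of all genes tested, scaling each library to a total RPKM of 1000000, and a minimum mean RPKM of 5 or none at all. The log2 ratio ranged from 0.42 to 0.46 for *Gas5*, 0.46 to 0.51 for *Snhg11*, 0.14 to 0.19 for *Snhg12*, 0.08 to 0.13 for *Snhg5* and −0.01 to 0.03 for *Snhg6*. *Snhg6* fell below 0 with the centred ratios, which leaves 4 of 5 hosts above 0, and 0 hosts were past 1.5-fold under each setting. The numbers of all genes past 1.5-fold higher and lower, 233 and 251 as reported, were 454 and 457 at a pseudocount of 0.1, 491 and 485 at 0.01, 511 and 468 without a filter and 46 and 104 at a minimum of 5. With rescaled sums 434 genes were higher and 356 lower, and with centred ratios 221 were higher and 267 lower. With hosts of unnamed snoRNAs included, the median was 0.03 for 18 further non-coding hosts and −0.01 for 231 protein-coding hosts. No paired analysis was possible because each genotype had 1 library, and for the same reason no replicate could be left out.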

Other observations

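Hosts whose snoRNAs carry no Snord, Snora or Scarna name entered only the alternative lists above, chosen after seeing the data. Among non-coding hosts of this kind, *Snhg20* was at 17.1 RPKM in control and 24.6 in mutant testes, from 273 and 381 reads, with a log2 ratio of 0.50 and an interval from 0.30 to 0.75. *Snhg17* was at 21.1 and 25.6 RPKM, from 552 and 649 reads, with a log2 ratio of 0.27 and an interval from 0.11 to 0.44. Lower ratios were found for the other tested hosts of this kind, *2900076A07Rik* (−0.07), *9430037G07Rik* (−0.05), *9330159M07Rik* (−0.02), *A430035B10Rik* (0.03) and *Epb41l4aos* (0.15). Each of these had an interval with a negative lower and a positive upper bound. The gene lengths implied by the values of *Snhg17*, *Snhg20*, *9330159M07Rik* and *A430035B10Rik* did not equal the mean transcript length in GENCODE M21. Their read numbers and intervals may therefore be off. All these hosts were named after their values were seen, and the intervals cover counting error only.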
